A study of Mus musculus with 2 samples.

Results

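Iron enters hematopoietic cells mainly bound to transferrin, is kept safely in ferritin and is spent on heme and iron-sulfur clusters. The 10 genes described here cover this route: Tfrc for uptake, Fth1 and Ftl1 for storage, Slc40a1 for export, Alas1, Alas2, Urod, Cpox and Fech for heme synthesis, and Hmox1 for heme breakdown. They were chosen by gene name from the 34745 genes of the deposited tables, and all 10 were found. Cells balance the route through iron regulatory proteins, which bind iron-responsive elements in mRNAs when iron is scarce. That binding blocks translation of ferritin, ferroportin and erythroid ALAS mRNA, and protects the transferrin receptor mRNA from decay. Erythroid cells use most of the heme that marrow makes, and other progenitors make less of it, for mitochondrial and other heme proteins.

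The libraries came from bone marrow (BM) LSKs, which lack lineage markers, carry Sca1 and c-Kit, and hold stem and early progenitor cells. The Scl/tTA-BA mice, of the C57BL/6 strain, carry a tetracycline transactivator under Scl control and a transgene for BCR/ABL (BA), the fusion kinase of chronic myeloid leukemia, that doxycycline keeps silent. Week-0 LSKs came from such mice still on doxycycline, and week-3 LSKs from mice 3 weeks after its withdrawal, so both groups carry the same transgenes. Each group was 1 library of LSKs mixed from 3 mice, and the age of the mice is not given in the sources used here. There are thus no replicates to show how far mice of a group differ, and what follows compares 2 libraries. In bulk RNA, fewer cells of a type and less RNA per cell cannot be told apart.

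Depth, as reads on genes, was 6356164 for week-0 and 3886695 for week-3. A ratio is the week-3 over the week-0 FPKM (fragments per kilobase of exon, scaled by the reads of the library). Its 95% interval is exact (Clopper-Pearson) and covers only counting error, as the cDNA was amplified and several reads can stem from the same molecule. Genes were called higher at a ratio of at least 2, or lower at a ratio of at most 0.5, if the interval excluded a ratio of 1 and the libraries together held at least 10 reads. No p-value is given, because 1 library per group gives none. Of the 13689 genes with enough reads, 1444 (10.5%) were called higher and 2046 (14.9%) lower, and their median log2 ratio was 0.05. All 10 iron and heme genes had enough reads, and 3 were called higher (Alas1, Tfrc and Cpox), 1 lower (Alas2) and 6 neither. The median log2 ratio of the 10 genes was -0.08.

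Iron-responsive elements were searched in the mRNAs of these genes, because they mark which of them the iron regulatory proteins can bind. The pattern, on the transcript strand, was a bulged C, then 5 bases of any kind, then the 6-base loop CAGTGN, which those 5 bases closed as a stem of 5 base pairs with the bases after it, G-T pairs allowed. In GENCODE M21 transcripts, 5 of the 10 mRNAs held the pattern. It lay once in the 5′ UTR of Fth1, Ftl1, Slc40a1 and Alas2, and 4 times in the 3′ UTR of Tfrc. Among all genes with a UTR of at least 30 bases, 0.101% held it in the 5′ UTR and 0.507% in the 3′ UTR. These shares are no test of the 5 mRNAs, which are the ones named at the start as bound through such elements. Their matches were known beforehand. Each element is printed 5′ to 3′ as DNA, with the bulged C and the loop in capitals.
Fth1, chr19:9982732-9982761, plus strand: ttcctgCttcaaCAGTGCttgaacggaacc
Ftl1, chr7:45459778-45459807, minus strand: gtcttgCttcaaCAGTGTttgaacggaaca
Slc40a1, chr1:45925464-45925493, minus strand: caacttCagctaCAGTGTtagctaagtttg
Alas2, chrX:150547458-150552150 with an intron between, plus strand: ttggttCgtcctCAGTGCagggcaacagga
Tfrc, chr16:32631219-32631248, plus strand: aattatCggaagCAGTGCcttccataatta
Tfrc, chr16:32631598-32631627, plus strand: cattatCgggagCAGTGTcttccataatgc
Tfrc, chr16:32631663-32631692, plus strand: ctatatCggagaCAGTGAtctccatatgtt
Tfrc, chr16:32631710-32631739, plus strand: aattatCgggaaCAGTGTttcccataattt
The elements of Fth1 and Ftl1 share the stem next to the loop, and those of Tfrc share the bases around the bulge. The pattern was not found in Hmox1, Alas1, Fech, Cpox or Urod, which says only that these letters are not in the transcripts searched. Coordinates of the elements are those of GRCm38, the build the reads were mapped to.

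The transferrin receptor genes went in opposite directions between the libraries. Tfrc (ENSMUSG00000022797, chromosome 16 of GRCm38, from 32608920 to 32632794) encodes transferrin receptor 1, which carries iron-loaded transferrin into the cell. Reads of Tfrc numbered 140 and 238 in the week-0 and week-3 libraries, for FPKM values of 2.28 and 6.35. The ratio was 2.78 (95% interval 2.25 to 3.45), so Tfrc was higher in the week-3 library, also in raw reads despite the lower depth. Tfr2, the iron-sensing receptor of liver and erythroid cells, had fewer reads at week-3 and was not called, going from 877 to 284 reads, a log2 ratio of -0.92 (interval -1.12 to -0.72). With TMM and median-of-ratios scaling its log2 ratio was -1.03 and -1.01, past the limit, and Tfr2 was called lower. Tfrc made up 13.8% (exact interval 11.7 to 16.0) of what both receptor genes had at week-0, against 45.6% (41.3 to 49.98) at week-3. This share does not depend on how the libraries were scaled.

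Among the other uptake genes, 4 were called higher and 0 lower. With Tfrc, 5 of 11 genes with enough reads were higher, beside 10.5% of all genes (14.9% lower), and the median log2 ratio of the list was 0.30. With TMM or median-of-ratios scaling 3 were higher (Tfrc, Hfe and Lcn2) and 1 lower (Tfr2). Lcn2, whose product lipocalin 2 binds iron-carrying siderophores and is stored in neutrophil granules, went from 32 to 279 reads, a log2 ratio of 3.83 (interval 3.30 to 4.41). Hfe, which encodes a partner of the transferrin receptors, went from 46 to 94 reads, a log2 ratio of 1.74. The metal importers Slc39a14 and Slc39a8 had log2 ratios of 1.05 and 1.01, just past the limit. Snx3, a sorting protein that recycles the transferrin receptor, was not called at -0.28, nor were the endosomal iron reductase Steap3 at -0.77 and the endosomal channel Mcoln1 at 0.02.

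Ferritin was by far the most abundant product of the route. Its subunits assemble into a shell in which the heavy chain, from Fth1, oxidizes iron and the light chain, from Ftl1, helps the mineral core form. Together they took 0.852% of the week-0 reads and 0.678% of the week-3 reads. Fth1 (ENSMUSG00000024661, chromosome 19, from 9982703 to 9985092) counted 18755 and then 6827 reads, for FPKM values of 3407 and 2028. Its ratio of 0.595 (interval 0.579 to 0.612) did not reach 0.5, so Fth1 was not called, although counting error is small at this depth. Ftl1 (ENSMUSG00000050708, chromosome 7, from 45457944 to 45459884) had 35412 and 19537 reads and an FPKM of 1971 and 1779, a ratio of 0.902 (0.887 to 0.918). Neither gene was called, and the ratio of Fth1 was the smaller one. The share of Fth1 among the reads of both genes was 34.6% (34.2 to 35.0) in the week-0 library against 25.9% (25.4 to 26.4) in the other. By FPKM, Fth1 ranked 10 and 13 among all genes, and Ftl1 ranked 21 in both libraries.

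**Figure D1:**
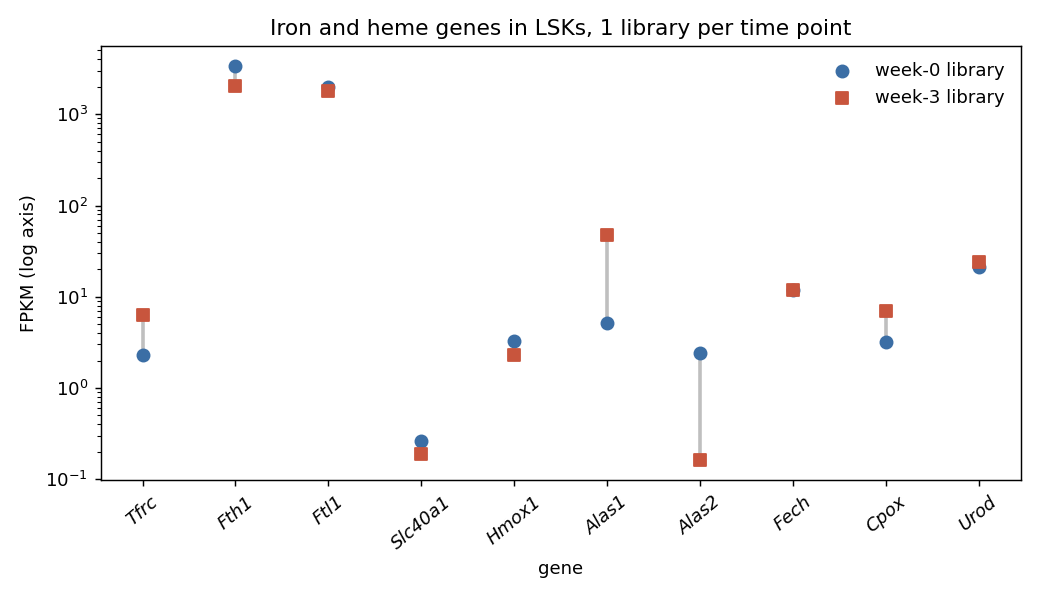
FPKM (log axis) of the 10 genes in the week-0 library (blue circles) and the week-3 library (red squares), with a grey line between the values of a gene. Fth1 and Ftl1 sit far above the rest, Alas1 goes from 5.21 to 47.3, and Alas2 goes from 2.41 to 0.161.

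The order of the ferritin genes in FPKM rests on the exon lengths behind it. Reads and FPKM together imply an exon length of 2826 bases for Ftl1, which is more than the 1941 bases of its locus, and of 866 bases for Fth1. Urod was the other gene with an implied length over that of its locus, 5021 against 4449 bases. With the lengths of a main GENCODE M21 transcript of each gene (968 bases for Ftl1, 929 for Fth1), Ftl1 came to 5755 reads per kilobase and 1000000 reads at week-0 and Fth1 to 3176, the reverse of the FPKM order. Ratios between the libraries are not touched by this, because the same length enters both. Processed copies of ferritin genes can also share reads. Ftl2-ps had 348 and 150 reads and Fth-ps2 had 23 and 9, far fewer than Ftl1 and Fth1.

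Of the other storage genes, Ncoa4, the receptor that hands ferritin to autophagy, was called lower with 779 and 221 reads, a log2 ratio of -1.11 (interval -1.33 to -0.89). The iron chaperone gene Pcbp2 was also lower, at -1.12, whereas its relative Pcbp1, with 2435 and 1334 reads, was at -0.16 and not called. Bola2, which pairs with glutaredoxin 3 in cytosolic iron handling, was called higher at 1.24, while Glrx3 itself was at 0.41. Ftmt, which encodes mitochondrial ferritin, had 0 reads in both libraries. The list had 1 gene higher and 2 lower of 7 with enough reads, beside 10.5% and 14.9% of all genes. Its median log2 ratio was -0.16.

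Export was close to the limit of detection. Slc40a1 (ENSMUSG00000025993, chromosome 1, from 45908068 to 45926523) encodes ferroportin, the only known cellular iron exporter, which is highest in macrophages and gut cells. It had 18 reads (FPKM 0.263) at week-0 and 8 reads (FPKM 0.191) at week-3. The ratio of 0.727 had an interval from 0.273 to 1.76, so a difference was not detectable at this depth. Heph, a copper oxidase that works with ferroportin, had 10 and 0 reads and was called lower. Its ratio was 0.49 with 3 reads taken as the floor, and the interval reached up to 0.73. With a limit of 50 reads over both libraries, Heph had too few reads to be called. Hamp, Hamp2 and Hfe2, genes of the hepcidin axis that act in liver and muscle, had 0 reads in both libraries, as did Hephl1.

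Alas1 and Alas2 encode the enzyme of the first and rate-limiting step of heme synthesis, Alas1 in all cells and Alas2 in erythroid cells. They changed in opposite directions. Alas1 (ENSMUSG00000032786, chromosome 9, from 106233455 to 106248126) counted 225 and then 1247 reads, and its FPKM was 5.21 and 47.3. The ratio was 9.06 (interval 7.86 to 10.5), and 123 of the 13689 genes had a larger one. Alas2 (ENSMUSG00000025270, chromosome X, from 150547375 to 150570638) counted 49 and then only 2 reads, and its FPKM was 2.41 and 0.161. The ratio was 0.0667, and 2 reads leave it anywhere between 0.00786 and 0.254. Alas1 made up 82.1% (77.1 to 86.5) of the reads of both genes first and 99.8% (99.42 to 99.98) at week-3. Alas2 overlaps Apex2 on the other strand, which had 119 and 43 reads. The cDNA kit is not stated to keep strand, so some reads of either gene could belong to the other.

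**Figure D2:**
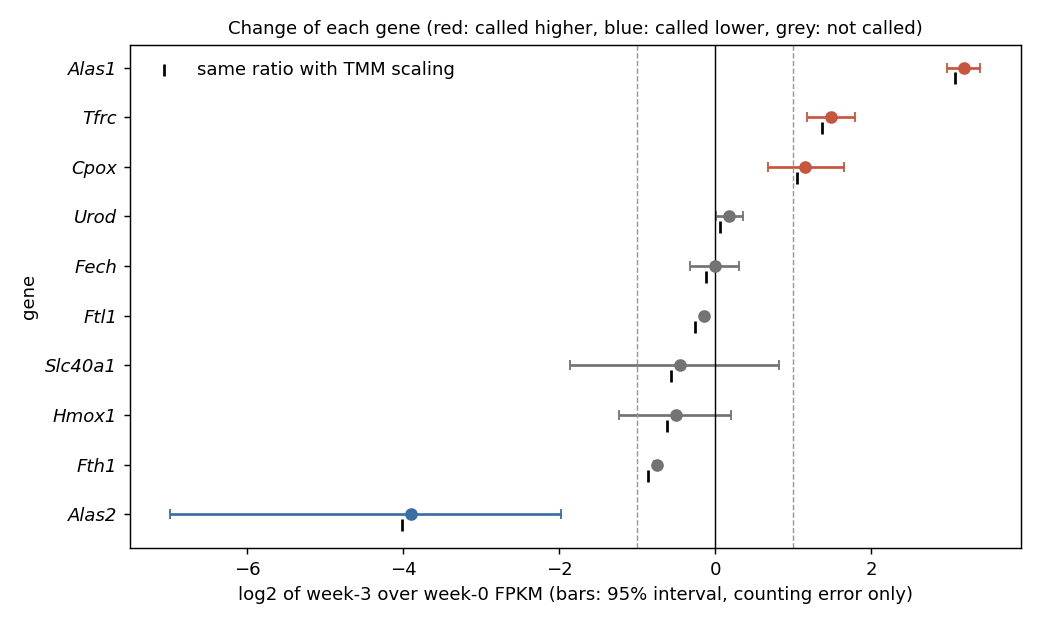
Log2 of the week-3 over the week-0 FPKM for each of the 10 genes, ordered by size, with 95% intervals for counting error and dashed lines at the limits of 2 and 0.5. Alas1, Tfrc and Cpox (red) lie above the upper limit and Alas2 (blue) below the lower one, also with TMM scaling (black ticks). The widest intervals are those of Alas2 and Slc40a1.

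Short motifs were looked for in RefSeq promoters (GRCm38.p6, from 250 bases before to 50 bases after the start site), which were found for 7 of the 10 genes. The NRF1 motif, a palindrome of 10 bases known from promoters of mitochondrial genes, and the GATA motifs TGATAA and AGATAA, known from erythroid promoters, were searched on both strands. Matches were found in Alas1, Alas2 and Cpox, the heme genes that were called, and none in Tfrc, Fth1, Ftl1 or Urod. No promoter was found for Slc40a1, Hmox1 and Fech. The matches are shown with the motif in capitals. The line of Alas1 spells out the NRF1 motif, the others a GATA motif read on the opposite strand.
Alas1, chr9:106247906-106247935, minus strand: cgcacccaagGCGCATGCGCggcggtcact
Alas2, chrX:150547321-150547346, plus strand: actttgctttTTATCTttagcagagg
Cpox, chr16:58670112-58670137, plus strand: agcgcctatcTTATCAgtccaagcac
Cpox, chr16:58670202-58670227, plus strand: gggtgcagtcTTATCTgctctttccg
The NRF1 motif was in 0.971% of all 32851 promoter windows, TGATAA in 9.05% and AGATAA in 11.2%. Alas1 has 2 start sites in the table, and the same match lies in both windows. These matches describe the letters and do not show that a factor was bound.

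Of the enzyme genes after ALAS, Cpox was called. Alad, which encodes the next step, had 506 and 454 reads and was not called, although the interval of its log2 ratio of 0.55 (0.37 to 0.74) lay above 0. Uros was at -0.07, with an interval from -0.50 to 0.36. Urod (ENSMUSG00000028684, chromosome 4, from 116989965 to 116994413) encodes the decarboxylase that begins the trimming of the porphyrin side chains. With 673 and 465 reads its FPKM was 21.1 and 23.8. Its log2 ratio of 0.18 had an interval from 0.0026 to 0.35, which only just leaves out 0, and with TMM scaling the ratio was 0.06. Cpox (ENSMUSG00000022742, chromosome 16, from 58670208 to 58680391) encodes the oxidase of the next step. Cpox reads numbered 64 and 87, and its FPKM was 3.16 and 7.03. The ratio of 2.22 passed the limit, but its interval ran from 1.59 to 3.12. Ppox was at -0.11 (interval -0.37 to 0.16). Fech, ferrochelatase, which inserts iron into the finished ring, had nearly equal FPKM values of 11.99 and 11.88, from 221 and 134 reads. Its ratio was 0.992 with an interval from 0.794 to 1.23.

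**Figure D3:**
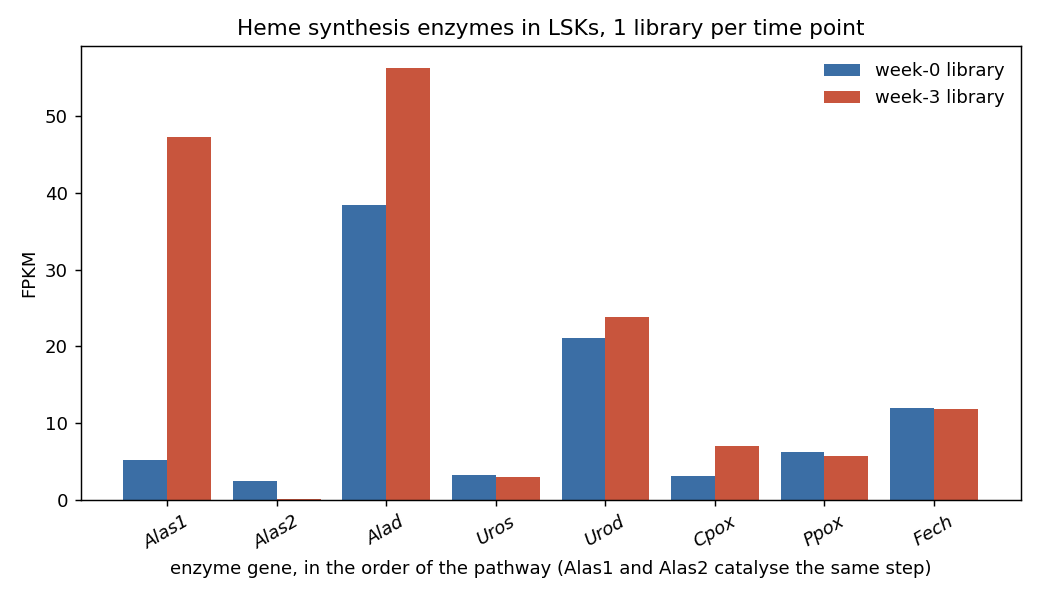
FPKM of 8 heme synthesis genes in pathway order, in the week-0 library (blue bars) and the week-3 library (red bars), with no error bars because each bar is 1 library. The bars of Alas1 go from 5.21 to 47.3, while those of Fech are nearly equal.

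Of all genes with enough reads, 10.5% were higher and 14.9% lower. Beside these shares, 2 of the 9 heme synthesis genes were higher, 1 was lower and 6 were not called, with a median log2 ratio of 0.18. Among 13 mitochondrial partner genes with enough reads, 2 were higher and 1 lower, beside the same shares of all genes, with a median of 0.55. Tmem14c, which moves a heme precursor across the inner membrane, had 616 and 813 reads, a log2 ratio of 1.11. Tspo, an outer membrane protein that binds porphyrins, had 2492 and 3582 reads and a log2 ratio of 1.23. Its erythroid relative Tspo2 was lower, with 30 and 3 reads (-2.61, interval -4.97 to -0.93). The iron importers of mitochondria were not called, with Slc25a37, the erythroid one, at -0.57 and Slc25a28, chosen here after its value was seen, at 0.88. Slc25a39 was at 0.55 and Abcb8 at 0.60.

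Heme breakdown was not called at any step. Hmox1 (ENSMUSG00000005413, chromosome 8, from 75093591 to 75100596) encodes the inducible heme oxygenase, which opens the heme ring and releases its iron. Its 58 and 25 reads gave FPKM values of 3.30 and 2.32. The ratio of 0.705 had an interval from 0.423 to 1.14, which holds 1. The constitutive Hmox2, with 433 and 287 reads, was at 0.12 on the log2 scale (interval -0.10 to 0.33). Hmox1 was 11.8% (9.09 to 15.0) of the reads of both oxygenase genes and then 8.01% (5.25 to 11.6), and these intervals overlap. The biliverdin reductase genes were at 0.42 for Blvra and -0.64 for Blvrb.

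Of the regulators known to act on these genes, several were called. Bach1, a heme-sensing repressor of Hmox1 and the ferritin genes, had 1744 reads (FPKM 39.3) at week-0 and 120 reads (FPKM 4.42) at week-3, a log2 ratio of -3.15 (interval -3.43 to -2.88). Its small Maf partner genes Mafk and Maff were also lower, at -2.24 and -2.53, and Mafg was at 0.40 and not called. A further list held NRF2, the activator that competes with BACH1, and genes linked to it. Of its 13 genes, 1 was higher and 5 were lower, beside 10.5% and 14.9% of all genes, with a median of -0.55. A ratio above 1 was seen in 6 of the 13 and a ratio below 1 in 7. The lower ones, besides Mafk and Maff, were the oxidative stress genes Nqo1 (52 and 10 reads, -1.67), Srxn1 (56 and 13 reads, -1.40) and Slc7a11 (59 and 16 reads, -1.17). Gsr, glutathione reductase, was higher, with 456 and 725 reads and a log2 ratio of 1.38. Nfe2l2, the NRF2 gene itself, was at -0.59, Prdx1 at 0.37 and Txnrd1 at 0.05.

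The iron regulatory proteins themselves, from Aco1 and Ireb2, had 74 and 75 reads (log2 ratio 0.73, interval 0.25 to 1.21) and 53 and 52 reads (0.68, interval 0.10 to 1.26), and were not called. Fbxl5, which directs Ireb2 protein to decay when iron is plentiful, was at 0.22. The same list held the Zfp36 genes, whose products degrade mRNAs with AU-rich 3′ ends. Beside 10.5% higher and 14.9% lower of all genes, 0 of its 6 genes with enough reads were higher and 2 were lower. They were Zfp36 (30697 and 6802 reads, -1.46) and Zfp36l1 (1199 and 37 reads, -4.31), and Zfp36l2 was at -0.58. In the list of heme transport and sensing, Flvcr1, a heme exporter listed as Mfsd7b in the tables, was higher with 26 and 50 reads (1.65, interval 0.94 to 2.40). Besides Bach1, Lrp1, a receptor for hemopexin-bound heme, was lower at -1.17. Slc48a1, Pgrmc1, Eif2ak1 and Abcg2 lay between -0.23 and 0.40 and were not called.

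**Figure D4:**
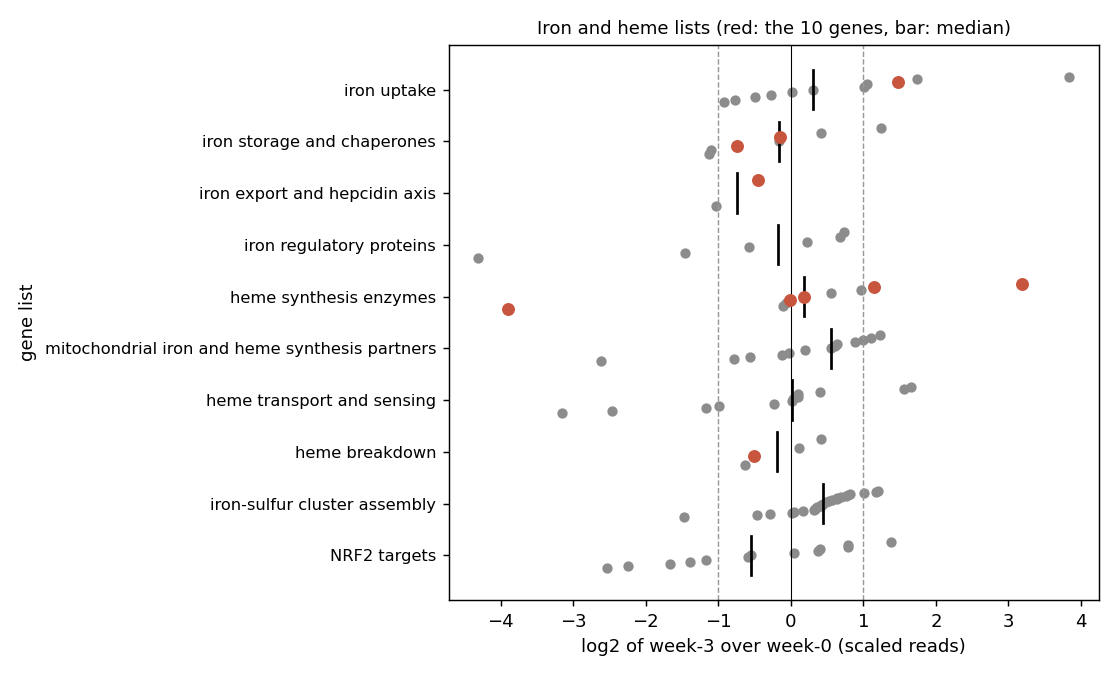
Log2 of week-3 over week-0 for each gene with enough reads in the 10 iron and heme lists, with the 10 genes described in red, the other genes in grey, the median of each list as a black bar and dashed lines at the limits of 2 and 0.5. The heme synthesis enzymes span the widest range, from -3.91 for Alas2 to 3.18 for Alas1, while the iron-sulfur cluster genes gather around a median of 0.44.

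Over the 10 lists without the 10 genes, 92 genes had enough reads. Of these, 12 (13.0%) were called higher and 14 (15.2%) lower, close to the 10.5% and 14.9% of all genes. Scaling by TMM, which lowers every log2 ratio by 0.11, gave 8 higher and 16 lower, and Slc39a14, Slc39a8, Tmem14c and the iron-sulfur gene Bola1 were no longer called higher, while Tfr2 and Cd163, the hemoglobin scavenger receptor gene, were called lower. Median-of-ratios scaling gave 9 higher and 16 lower, with the same differences except that Tmem14c was still called.

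The calls of the 10 genes were read beside the share of all genes under other settings. With TMM 8.53% of all genes were higher and 17.1% lower, and with median-of-ratios scaling 8.78% and 16.7%. With no limit on reads the shares were 8.68% and 10.4%, with a limit of 50 reads 8.87% and 12.7%, and with the fold limit alone 11.9% and 17.9%. With edgeR's exact test and an assumed biological coefficient of variation of 0.1 they were 9.35% and 13.6%. Under each of these settings 3 of the 10 genes, Alas1, Tfrc and Cpox, were higher and 1, Alas2, was lower. With an assumed variation of 0.4, 0.38% of all genes were higher and 1.42% lower, and of the 10 only Alas1 was still called. With limits of 1.5 and 0.67, 20.4% of all genes were higher and 21.2% lower, and Fth1 joined Alas2 among the lower ones.

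Markers of other cells were read in the same libraries, since globin-making cells express Alas2 and Tspo2 and mast cells are a known product of such progenitors. Of all genes with enough reads, 10.5% were called higher and 14.9% lower. Of 20 erythroid markers, 16 had enough reads, and 13 of those were lower and 0 higher. Summed, they took 0.225% of the week-0 reads and 0.0391% of the week-3 reads. Hbb-bs had 3032 and 143 reads, Hbb-bt 2193 and 131, and Car2, which other myeloid progenitors also express, 4410 and 990. In contrast, 8 of 10 mast cell and basophil markers were higher and 1 was lower, with a summed share of 0.0529% and 0.427%. Tpsb2 had 0 and 5442 reads, Cpa3 524 and 4840, and Cma1 4 and 3361. The part of either shift in the values of Alas1, Alas2 and Tfrc was not tested.

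The counts of the next lists also stand beside 10.5% of all genes called higher and 14.9% lower. B lineage and plasma cell markers went from 0.884% to 0.0709% of reads, with 6 of 8 lower. The 3 with most reads, Igkc, Ighm and Jchain, had log2 ratios of -4.32, -3.11 and -5.03. Macrophage markers, which bear on Slc40a1 and Hmox1, took 0.00665% and 0.00924% of reads. Of 8 with enough reads, 2 were lower and 0 higher, and 3 had a ratio above 1 and 5 below. Cd68 (175 and 184 reads) and Csf1r (110 and 127 reads) had most reads. Their log2 ratios were 0.78 (interval 0.48 to 1.09) and 0.92 (0.54 to 1.30), and neither was called. Axl was lower (44 and 7 reads, -1.94), and Siglec1 had 0 reads in both libraries. Immediate-early and heat shock genes, which respond to handling and stress as Hmox1 can, took 2.99% and 0.948% of reads. Of the 13, 10 were lower and 3 not called, and 2 had a ratio above 1. Fos went from 36852 to 13025 reads (log2 ratio -0.79, not called), Egr1 from 41528 to 2859 (-3.15) and Junb from 23787 to 4612 (-1.66). Proliferation genes, which often accompany high Tfrc, took 0.144% and 0.177%, with 1 of 10 higher. It was Rrm2, a subunit of ribonucleotide reductase, with 247 and 658 reads and a log2 ratio of 2.12, named after its value was seen. The 3 with most reads, Mcm5, Top2a and Pcna, were at 0.29, 0.59 and 0.16. The sorting markers were present in both libraries, Kit with 1391 and 580 reads and Ly6a, the Sca1 gene, named here as a sorting marker, with 434 and 199. Of the 10 LSK markers 4 were lower and 1 higher, and their share was 0.234% and 0.101%, with Flt3 at a log2 ratio of -2.02 and Cd34 at -0.61. The part of these shifts in the values of the iron and heme genes was not tested.

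**Figure D5:**
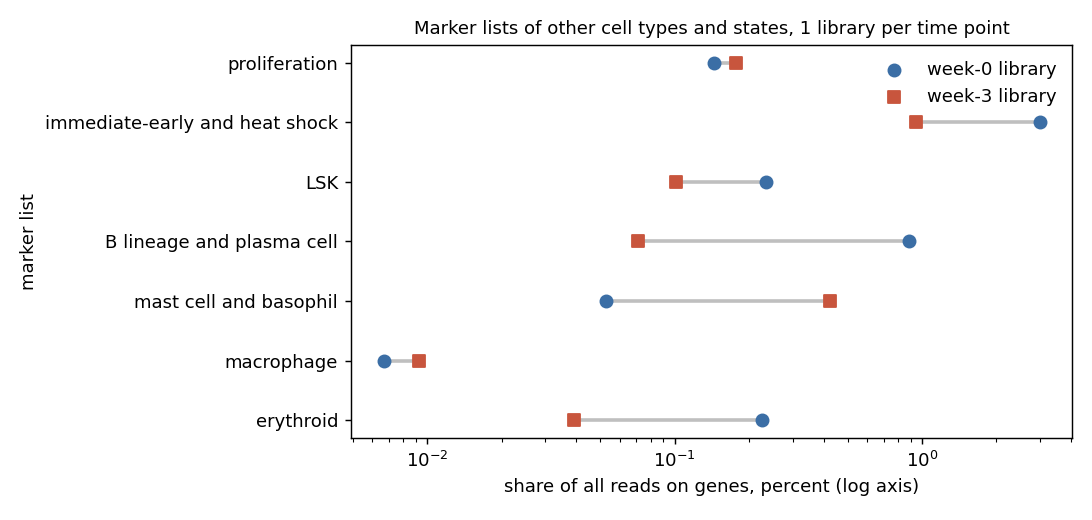
Summed share of all reads on genes (percent, log axis) for 7 marker lists, in the week-0 library (blue circles) and the week-3 library (red squares). The erythroid list goes from 0.225% to 0.0391% and the mast cell and basophil list from 0.0529% to 0.427%.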

How the data were processed

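BM LSKs were profiled by RNA-seq in 1 week-0 and 1 week-3 library. The authors prepared cDNA with a SMARTer kit and mapped paired reads to GRCm38 (mm10) with TopHat2 2.0.9, per the labels and the methods of the study. The authors deposited counts, whole numbers of reads per gene without normalization, and FPKM, scaled by exon length and library reads. The counting tool and the annotation release are not given in the sources used here. Tables were joined by Ensembl identifier. List genes were matched by symbol, or by identifier where the tables hold an older symbol. Of the 10 genes, 5 had the same coordinates in GENCODE M21. Calls are as defined in the report, and no test between conditions was possible. A library at 0 reads was set to the floor of 3 reads for a ratio. The genes and lists were chosen with earlier results of these data known. The text names the 10 genes, every called gene of the iron and heme lists and up to 4 uncalled genes with most reads per list, and of the markers the 3 with most reads. Genes at 0 reads, overlapping genes and ferritin copies named beside them fall outside this rule and were chosen after their values were seen. The read shares of gene pairs, the promoter motifs and the iron-responsive element search were chosen after values were seen. Alternatives used edgeR 4.0.16 (TMM, exact test with assumed variation), DESeq2 1.42.0 (median-of-ratios size factors) and R 4.3.3. Other steps ran in Python 3.11.15 (scipy 1.17.1 for intervals, pandas 2.3.3 and numpy 2.4.6 for tables, matplotlib 3.10.9 for plots). The calls and intervals were run on simulated counts that held counting error only. That run cannot show how they fare with amplified cDNA or with differences between mice. Some genes of these lists enter the counts but are not reported here by name.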

Additional observations from a re-analysis of the deposited data

How the results depend on the processing

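The calls of Alas1, Tfrc and Cpox as higher and of Alas2 as lower held with TMM and median-of-ratios scaling, with no limit on reads, with the fold limit alone and with edgeR's exact test at an assumed biological coefficient of variation of 0.1. At 0.4 in place of 0.1, 1 of the 10 genes (Alas1) was higher and 0 were lower. Of the 92 other pathway genes with enough reads, 1 was then higher (Lcn2) and 2 lower (Bach1 and Zfp36l1). At this setting 0.38% of all genes were higher and 1.42% lower. With limits of 1.5 and 0.67, 2 of the 10 genes were lower, Fth1 joining Alas2. Of the 92 other pathway genes, 27 were higher and 20 lower. At these limits 20.4% of all genes were higher and 21.2% lower. With genes of 3 GO terms in place of the lists, an alternative chosen after seeing the data, 3 were higher and 3 lower of 43. These counts stand beside 10.5% of all genes higher and 14.9% lower. The log2 ratio of Fth1 was -0.86 with TMM and -0.84 with median-of-ratios scaling, and that of Ftl1 was -0.26 and -0.24, beyond their narrow counting intervals. A pseudocount of 1 gave 1.16 for Tfrc, 2.96 for Alas1 and -1.56 for Alas2, which has 2 reads at week-3. No sign changed among the 40 alternative log2 ratios. Leaving out a replicate was not possible. No paired analysis was possible because each group has 1 library. Depth limits Slc40a1, Hmox1 and Alas2 most.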

Other observations

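Iron-sulfur clusters are the other main use of iron. Of 25 genes for their assembly, 22 had a log2 ratio above 0, with a median of 0.44 against 0.05 for all genes. The share of all genes above 0 was not counted. The count of 22 also depends on the scaling, as Iscu was at -0.06 with TMM. Beside 10.5% higher and 14.9% lower of all genes, 3 of the 25 were called higher, 1 lower and 21 neither. Those called higher were Ciapin1 (413 and 579 reads, log2 ratio 1.20) and Ciao1 (141 and 195 reads, 1.18), which act in cytosolic cluster assembly, and Bola1 (227 and 278 reads, 1.002), a mitochondrial factor. Isca1, a late-acting mitochondrial assembly factor, was lower with 1231 and 271 reads (-1.47, interval -1.67 to -1.28), while its partner Isca2, chosen after its value was seen, was at 0.33. The scaffold gene Iscu was at 0.05, Hspa9 at 0.69, Fam96a at 0.32 and Nubp2 at 0.57. Bola1 was no longer called with TMM or median-of-ratios scaling. By the GO annotation in the tables, read after seeing the data, iron-sulfur cluster assembly had 2 genes higher and 2 lower of 18 with enough reads, beside 10.5% and 14.9% of all genes. The term iron ion homeostasis had 7 higher and 8 lower of 48, and cellular iron ion homeostasis 1 higher and 2 lower of 22. The term heme biosynthetic process had 3 higher and 1 lower of 20. These last 3 terms hold 7, 6 and 5 of the 10 genes of the report, so their counts partly repeat the calls of Alas1, Cpox, Alas2 and Tfrc.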
